A study of Mus musculus with 6 samples.

Results

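Gene-dense bins are stretches of 100 kb of the mouse autosomes, cut at fixed coordinates of the mm10 build, that hold the midpoints of 6 or more protein-coding genes of the RefSeq annotation. A bin was eligible when 3 or more sequencing windows in it carried a value in each of the 6 deposited profiles. Of 21473 eligible autosomal bins, 336 were gene-dense, and they held 2444 genes. They fell into 3 classes by the names of their genes. In 237 mixed bins, with 1719 genes, no family that the symbol rule recognised held more than 2 genes. In 88 tandem bins, with 631 genes, a single family held at least 50% of the genes and at least 3 of them. The other 11 bins were intermediate. Families were recognised from a list of symbol patterns and from the letters that open a symbol, leaving out symbols without a digit and broad stems such as Tmem and Slc. The rule does not group predicted genes or the beta-globins, so 11 mixed bins that hold mostly predicted or several globin genes are also given apart, and no gene was shown to be single-copy.

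DNA replication follows an order in which open, transcribed, gene-rich chromatin is usually copied early in S phase and compact, gene-poor chromatin late. Many dense stretches of the genome hold unrelated genes that are active in nearly all cells, with promoters rich in CpG dinucleotides. Others arose by repeated duplication of a single gene, as in the olfactory receptors, the keratin-associated proteins, the interferons or the clustered protocadherins, and many such families are active in a single specialised tissue. Comparing the 2 classes sets the number of genes in a stretch apart from their kind.

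Replication timing was read from the sequencing depth of unsorted, growing cultures, in which DNA copied early is present in more copies than DNA copied late. The 6 samples were mouse myeloid cell lines made immortal by HoxB8 and chosen for growth in GM-CSF, a myeloid growth factor, with 3 wild-type (WT) samples and 3 samples of the genotype Recql4 -/- Klhdc3 -/-. Recql4 is a RecQ helicase needed to start replication, and Klhdc3 is a substrate receptor of a ubiquitin ligase. HoxB8 and GM-CSF were shared by both groups, no strain, age, donor or clone was named in the labels, and the design text gave a division time of 15 to 18 hours with over 25% of cells in S phase. The 6 columns of values carried no sample names, so they are called profiles A to F, no profile is assigned to a genotype, and no genotypes are compared. DNA depth holds no expression, so the myeloid label could not be set against marker genes.

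Each profile was deposited as a timing score, smoothed along the chromosome, scaled so that autosomal windows average 0 with an SD of 1, in which a higher score stands for earlier replication. It was also deposited as an unsmoothed DNA copy level with autosomes near 2, here called the raw level. The score of a bin is the mean over its windows, and its median is taken over the 6 profiles. No test was run, because bins are not replicates, the profiles have no groups, and smoothing makes neighbouring bins alike. Coverage of 30-fold was aimed at, and since the sources used here do not give the depth that each library reached, no counting error can be attached. Chromosomes 12 and 19 gave no eligible bin, which left 17 autosomes.

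DNA around the starts of genes of both classes is shown as an illustration. The windows printed here run 5′ to 3′ from 250 bases before to 50 bases after an annotated start, are taken from RefSeq on GRCm38.p6, the assembly that mm10 names, and have every CG dinucleotide in capitals. Fahd1, a mitochondrial enzyme gene, stands for the earliest mixed bin and Nelfb, a subunit of the negative elongation factor, for the mixed bin with the most genes outside the predicted-gene bins described further on. Olfr307 stands for the latest tandem bin, Lce6a for the latest cornified envelope bin and H2ac21 for the earliest histone bin.
Fahd1 (chr17:24850253-24850552, minus strand): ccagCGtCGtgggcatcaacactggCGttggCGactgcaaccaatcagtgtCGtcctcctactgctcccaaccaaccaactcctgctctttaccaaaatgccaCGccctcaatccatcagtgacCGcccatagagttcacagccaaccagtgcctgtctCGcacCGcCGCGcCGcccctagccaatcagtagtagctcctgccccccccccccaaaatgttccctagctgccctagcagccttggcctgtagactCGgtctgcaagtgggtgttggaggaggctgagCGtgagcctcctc
Nelfb (chr2:25211440-25211739, minus strand): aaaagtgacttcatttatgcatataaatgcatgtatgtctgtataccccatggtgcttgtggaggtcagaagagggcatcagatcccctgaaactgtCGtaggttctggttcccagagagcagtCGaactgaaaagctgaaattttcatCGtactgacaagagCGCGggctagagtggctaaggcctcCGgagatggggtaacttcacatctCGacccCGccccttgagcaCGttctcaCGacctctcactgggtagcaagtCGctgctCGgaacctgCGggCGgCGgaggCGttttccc
Olfr307 (chr7:86336345-86336644, minus strand): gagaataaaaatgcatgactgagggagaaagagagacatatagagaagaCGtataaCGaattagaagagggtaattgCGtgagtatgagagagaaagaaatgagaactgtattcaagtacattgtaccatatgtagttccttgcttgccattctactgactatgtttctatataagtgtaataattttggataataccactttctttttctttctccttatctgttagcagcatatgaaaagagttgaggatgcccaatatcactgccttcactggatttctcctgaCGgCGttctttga
Lce6a (chr3:92621611-92621910, minus strand): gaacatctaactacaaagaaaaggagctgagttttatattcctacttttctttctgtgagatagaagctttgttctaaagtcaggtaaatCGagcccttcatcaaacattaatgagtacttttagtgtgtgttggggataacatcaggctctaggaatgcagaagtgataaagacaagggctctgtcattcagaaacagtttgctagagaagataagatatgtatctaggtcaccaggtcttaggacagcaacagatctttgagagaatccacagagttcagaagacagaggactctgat
H2ac21 (chr3:96219635-96219934, plus strand): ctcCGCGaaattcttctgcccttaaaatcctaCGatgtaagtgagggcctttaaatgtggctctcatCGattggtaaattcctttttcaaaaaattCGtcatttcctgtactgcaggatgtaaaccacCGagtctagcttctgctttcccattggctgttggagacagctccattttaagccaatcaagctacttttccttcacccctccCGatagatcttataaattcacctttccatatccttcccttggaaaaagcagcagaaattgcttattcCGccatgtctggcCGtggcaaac
The windows of Fahd1 and Nelfb held 14 and 16 CG dinucleotides, that of H2ac21 held 9, that of Olfr307 held 5 and that of Lce6a held 1. Their bins had median scores of 1.82, 1.64, 1.34, -1.87 and -1.36, in the order Fahd1, Nelfb, H2ac21, Olfr307, Lce6a.

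Mixed gene-dense bins replicated early and tandem bins replicated, on balance, near the middle of the range of the autosomes. The median score over the mixed bins was 1.25, 1.27, 1.29, 1.18, 1.25 and 1.08 in profiles A to F. Over the tandem bins it was -0.039, -0.090, -0.138, -0.032, 0.101 and 0.0095 in the same order. The lowest value of the mixed bins, in profile F, lay far above the highest value of the tandem bins, in profile E. The difference between the 2 medians was 1.29, 1.36, 1.43, 1.22, 1.15 and 1.07 score units in A to F, in each profile larger than the spread of either class over the profiles. All autosomal bins together had a median of 0.099 (range over the profiles 0.038 to 0.118), and bins with no gene one of -0.450 (range -0.495 to -0.391). Olfactory receptor bins weighed on this comparison: without these 40 bins the tandem median was 0.580 (range over the profiles 0.506 to 0.624), and the difference fell to a median of 0.678 (range 0.457 to 0.751). With them, a typical tandem bin with 6 or more genes stood beside the average bin, and a typical mixed bin stood above the upper quartile of all bins.

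The unsmoothed copy level showed the same order. Mixed bins had median raw levels of 2.18, 2.17, 2.16, 2.14, 2.16 and 2.16 in profiles A to F, and tandem bins had 1.97, 1.97, 1.96, 1.96, 1.96 and 1.98. The mixed level was thus between 1.09 and 1.11 times the tandem level, a difference of 0.177 to 0.211 copies.

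**Figure D1:**
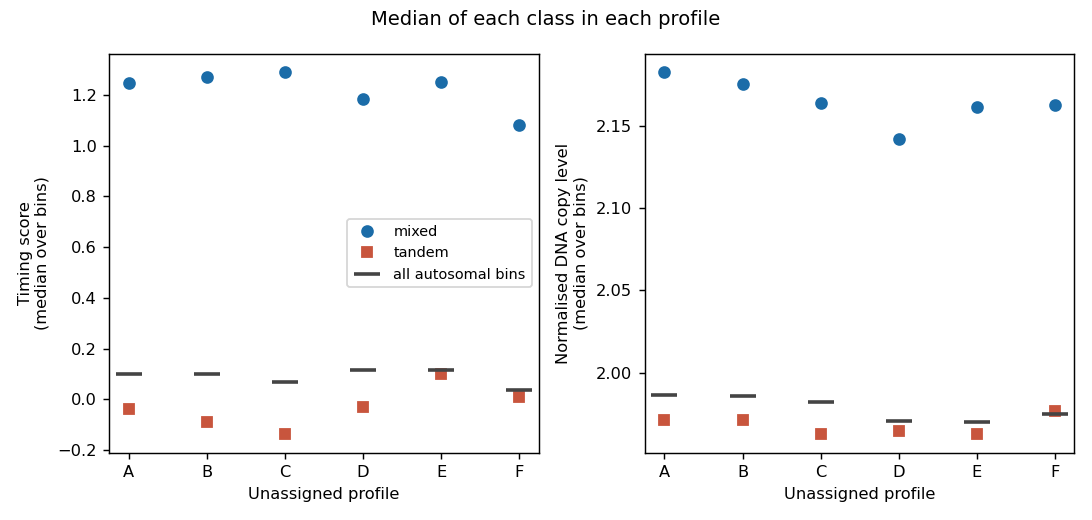
Median timing score (left, score units) and median DNA copy level (right, autosomes near 2) over the 237 mixed bins (circles), the 88 tandem bins (squares) and all 21473 autosomal bins (dashes) in the unassigned profiles A to F; the vertical axes do not start at 0. The circles stand at 1.08 to 1.29 on the left and 2.14 to 2.18 on the right, and the squares lie beside the dashes.

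Single bins overlapped between the classes. Scores of mixed bins ran from -1.83 to 1.82 with an interquartile range of 0.99 to 1.50, and those of tandem bins from -1.87 to 1.64 with an interquartile range of -0.915 to 0.680. When every mixed bin was set against every tandem bin, the mixed bin had the higher score in 88.0% to 90.1% of the pairs, depending on the profile. Of all autosomal bins, 46.5% scored above 0 in each of the 6 profiles. Of the gene-dense bins 279 (83.0%) did so, of the mixed bins 232 (97.9%) and of the tandem bins 38 (43.2%), a share close to the background. Scores below 0 in each profile were found in 40.5% of all autosomal bins, in 5 mixed bins (2.11%) and in 40 tandem bins (45.5%). At the extremes, a median score above 1 was reached by 176 mixed bins (74.3%) and 12 tandem bins (13.6%), against 15.9% of all bins. A median below -1 was found in 3 mixed bins (1.27%) and 19 tandem bins (21.6%), against 20.4% of all bins. The 11 intermediate bins resembled the mixed ones, with a median of 1.32 (range over the profiles 1.21 to 1.40) and 9 of 11 above 0 in each profile.

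**Figure D2:**
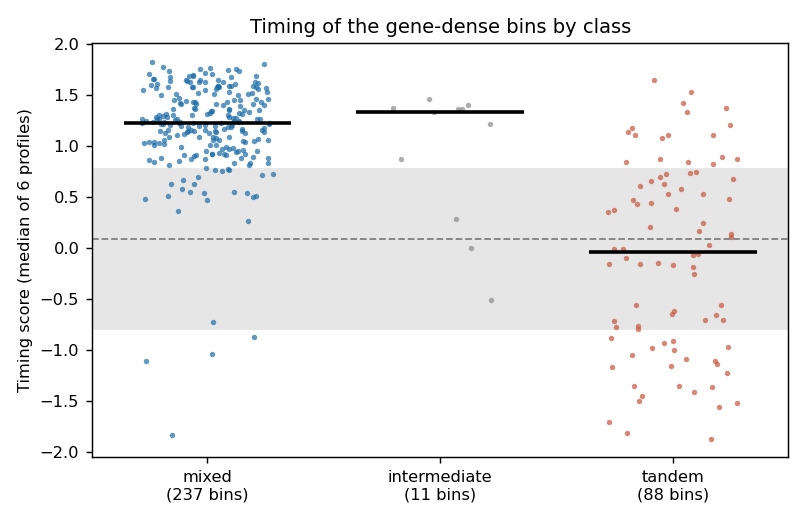
Timing score of each gene-dense bin (median of 6 profiles, score units) by class; points are bins, spread sideways at random, black bars are class medians, and the dashed line and grey band are the median and interquartile range of all autosomal bins. Mixed bins crowd between about 1 and 1.5 with 5 bins below 0, while tandem bins spread from -1.87 to 1.64.

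Among bins where no recognised family held 3 or more genes, timing went with gene number up to about the gene-dense limit. Among tandem bins it did not clearly do so. Among bins without a family of 3 or more genes, the median score rose from -0.450 with no gene to 0.504 with 1 gene, 0.780 with 2, 0.959 with 3, 1.11 with 4 and 1.20 with 5. A bin of 1 or 2 genes cannot be tandem, so tandem bins are left out of this series only from 3 genes on. Over bins of every class the rise was smaller, to 0.861 with 3 genes, 0.998 with 4 and 1.05 with 5. From 6 genes on it stayed at one level, with 1.26 in 98 bins of 6 genes, 1.24 in 65 bins of 7, 1.24 in 34 bins of 8, 1.24 in 22 bins of 9 and 1.17 in 18 bins of 10 or more. Tandem bins had medians of -0.047 with 3 genes, -0.061 with 4 and 0.199 with 5. With 6 genes the median of 47 tandem bins was -0.545, with 7 genes that of 20 bins was 0.088, and with 8 genes that of 10 bins was -0.016. The 10 tandem bins with 10 or more genes stood at 0.650. Of those, 4 were histone bins, 3 protocadherin bins and 1 each an interferon, a keratin-associated protein and a Ly6 bin. Just inside and just outside the limit on gene number, all bins with 6 genes (145 bins) had a median of 1.06 and those with 5 genes (273 bins) one of 1.05.

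**Figure D3:**
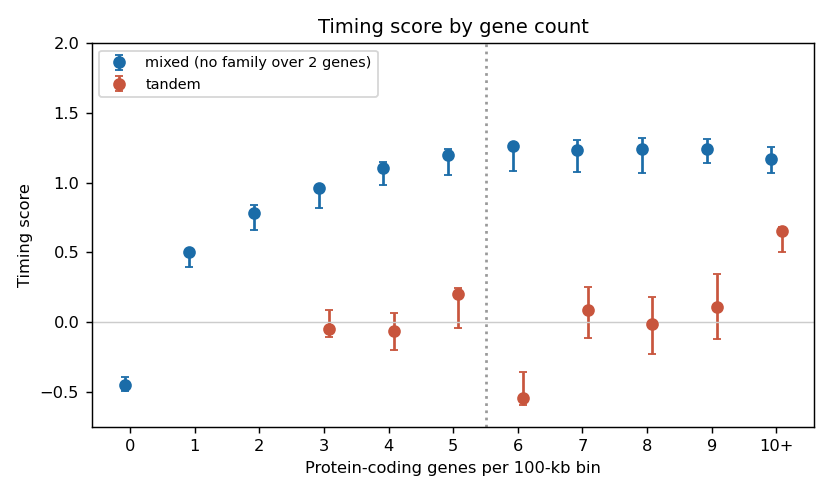
Median timing score (score units) against the number of protein-coding genes in a bin, for bins without a family of over 2 genes (blue) and for tandem bins (red); points are medians of 6 profile medians, bars run from the lowest to the highest profile, and the dotted line marks the limit of 6 genes. The blue points climb from -0.450 to 1.26 and level off, and the red points lie between -0.545 and 0.650.

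The 5 earliest mixed bins lay on chromosomes 4, 11 and 17 and held genes of varied kinds. The earliest, on chromosome 17 (24800001 to 24900000), held 9 genes, among them Hagh, an enzyme that detoxifies methylglyoxal products, Mrps34, a subunit of the mitochondrial ribosome, Nme3, a nucleoside diphosphate kinase, and Meiob, a gene of meiosis. Its scores were 1.84, 1.81, 1.74, 1.86, 1.84 and 1.55 in profiles A to F, with raw levels of 2.28, 2.26, 2.22, 2.25, 2.25 and 2.21. Profile F was the lowest in both measures, and it also had the lowest median score over all mixed bins (1.08). By score the other profiles lay close together, while on the raw level C was close to F. The next bin, on chromosome 4 (155800001 to 155900000), held 10 genes, including Dvl1 of the Wnt pathway, Ints11, the RNA-cutting subunit of the Integrator complex, Ccnl2, a cyclin, and Tas1r3, a sweet and umami taste receptor, with a median score of 1.80 (range 1.65 to 1.98). A pair of neighbouring bins on chromosome 11 followed. The first of them (120500001 to 120600000) held P4hb, a protein disulfide isomerase, Alyref, an mRNA export factor, and Gcgr, the glucagon receptor, at 1.78. The other (120400001 to 120500000) held Hgs, which sorts ubiquitinated receptors, and Mrpl12 at 1.76. The bin of Rps2, a ribosomal protein, and Ndufb10, a subunit of respiratory complex I, adjoins the earliest bin on chromosome 17 (24700001 to 24800000) and also had a median of 1.76. The mixed bin of Nelfb, with 15 genes, among them Tubb4b, a tubulin, and Anapc2, a subunit of the anaphase-promoting complex, lies on chromosome 2 (25200001 to 25300000). Its scores were 1.68, 1.67, 1.62, 1.80, 1.59 and 1.54.

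Both genes inactivated in the double mutant lie in mixed gene-dense bins. The bin of Recql4 (chromosome 15, 76700001 to 76800000, 6 genes) had scores of 1.30, 1.35, 1.27, 1.19, 1.28 and 1.29 and raw levels of 2.21, 2.20, 2.14, 2.17, 2.23 and 2.27 in profiles A to F. The bin of Klhdc3 (chromosome 17, 46600001 to 46700000, 7 genes) had scores of 1.13, 1.17, 1.31, 2.16, 1.23 and 1.07 and raw levels of 2.16, 2.18, 2.15, 2.24, 2.17 and 2.16. The Klhdc3 bin lies in a stretch of chromosome 17, from 45500001 to 57100000, and is 1 of the 7 gene-dense bins there whose scores spanned 1 or more, with D the highest in each. No profile stood apart at Recql4. Neither bin assigns a profile to a genotype, because the sources used here do not give the extent of the deletions. A mixed bin with a myeloid theme, named here after its values were seen, holds Elane, Prtn3 and Cfd, which encode serine proteases of neutrophils and the complement protease factor D (chromosome 10, 79800001 to 79900000). It scored 1.60, 1.63, 1.68, 1.59, 1.47 and 1.48.

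The 5 mixed bins that scored below 0 in each profile were all bins of mostly predicted or of globin genes. Of the 237 mixed bins, 9 consisted for over 50% of predicted genes, whose symbols carry no family name, and 2 were globin bins. These 11 bins were picked out after the values were seen. Of the 9 bins of predicted genes, 5 were above 0 in each profile. Among these was a bin of 15 genes on chromosome 10 (77700001 to 77800000), with Krtap12-1 and 13 predicted genes, at 1.04. The other 4 were below 0 in each profile. One was a bin of 7 predicted genes on chromosome 10 (104100001 to 104200000) with a median of -1.83, and only 4 of its windows were valued in all profiles. The other 3 lie among keratin-associated protein genes on chromosome 16, between 88700001 and 89300000, with medians of -1.11, -1.04 and -0.870. The first of these bins itself holds Krtap13-1 and Krtap13, and the third holds Krtap20-2. The last of the 5 late bins was the beta-globin bin, with Hbb-bt, Hbb-bs and 3 other beta-like globin genes between olfactory receptor genes (chromosome 7, 103800001 to 103900000), which scored -0.841, -0.722, -0.650, -0.550, -0.729 and -0.840. The alpha-globin bin, with Hba-a1 and Hba-a2 next to Mpg, a DNA glycosylase, and Nprl3, a regulator of nutrient signalling, lies on chromosome 11 (32200001 to 32300000) and scored 1.09, 1.21, 1.10, 1.04, 1.05 and 1.04. The beta-globin bin was late and the alpha-globin bin early in all 6 profiles.

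Without these 11 bins, each of the 226 remaining mixed bins scored above 0 in each profile, and their median was 1.27 (range over the profiles 1.10 to 1.31). The latest of them, on chromosome 17 (36900001 to 37000000), holds Trim31, a ubiquitin ligase, Ppp1r11, a phosphatase inhibitor, and H2-M5 of the major histocompatibility complex. It scored 0.430, 0.520, 0.243, 0.176, 0.223 and 0.294. Next came a bin on chromosome 7 (4900001 to 5000000) with Zfp628 and Nat14 at 0.367, and one with Echs1, an enzyme of fatty acid oxidation, Paox, a polyamine oxidase, and 2 olfactory receptor genes at 0.475 (chromosome 7, 140100001 to 140200000). The bin of Map2k7, a kinase of the JNK pathway, and Timm44, a mitochondrial import factor, stood at 0.485 (chromosome 8, 4200001 to 4300000). That of Egln2, a prolyl hydroxylase of the hypoxia pathway, and 2 cytochrome P450 genes stood at 0.499 (chromosome 7, 27100001 to 27200000).

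Tandem bins differed from family to family over nearly the whole range of scores. The 88 bins belonged to 23 families and formed 50 clusters of neighbouring bins of one family, of which 16 clusters held more than 1 bin and the largest held 8. Taking 1 value per cluster gave a median of 0.291 (range over the profiles 0.205 to 0.404), and 20 of the 50 clusters had a median below 0. The higher value per cluster goes with the long olfactory clusters, which then count once each.

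**Figure D4:**
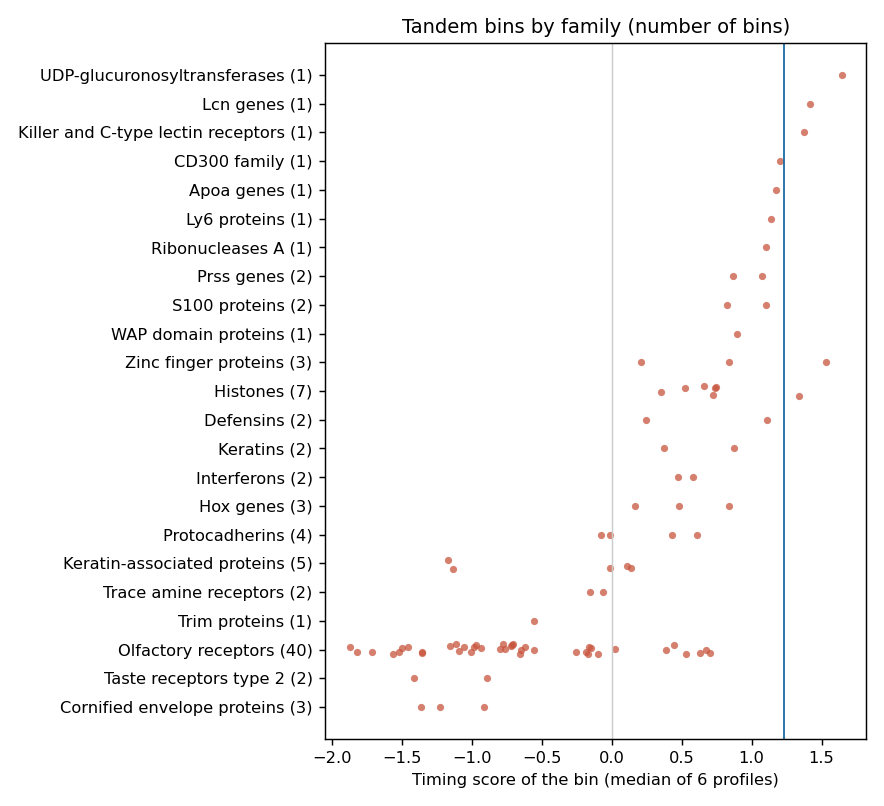
Timing score of each tandem bin (median of 6 profiles, score units) by gene family, with the number of bins in brackets; the blue line is the median of the mixed bins and the grey line marks 0. Olfactory, taste receptor and cornified envelope bins lie mostly left of 0, and histone, S100 and zinc finger bins lie right of 0.

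Sensory receptor families made up 44 of the tandem bins and were the latest group, with a median of -0.714 (range over the profiles -0.829 to -0.691). Of these bins 34 were below 0 in each profile and 6 above. The olfactory receptors, which detect odours in nasal neurons, accounted for 40 bins with 243 receptor genes in 17 clusters, and 31 of their bins were below 0 in each profile. Timing differed between olfactory clusters. The 15 bins of chromosome 2 were all below 0 in each profile, with a median of -1.28 and a latest bin at -1.82 (87000001 to 87100000). The 13 bins of chromosome 7 had a median of -0.508. Among them was the latest of all tandem bins, which holds Olfr309, Olfr307 and Olfr303 (86300001 to 86400000) and scored -1.82, -1.80, -1.85, -1.91, -1.89 and -1.93. The 4 bins of chromosome 11 were above 0 in each profile, with a median of 0.578, and the bin of Olfr1384 there (49500001 to 49600000) was the earliest olfactory bin, at 0.784, 0.729, 0.693, 0.692, 0.709 and 0.689. Olfactory bins of chromosomes 9 (2 bins) and 10 (3 bins) had medians of -1.08 and -0.729.

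The bitter taste receptors, expressed in taste cells, gave 2 bins on chromosome 6. That of Tas2r121 (132700001 to 132800000) scored -1.29, -1.34, -1.41, -1.42, -1.52 and -1.45, and that of Tas2r130 (131600001 to 131700000) had a median of -0.887. The trace amine receptors, another family of the olfactory epithelium, stood near the average of the autosomes, with a median of -0.110 over 2 neighbouring bins of chromosome 10. On the unsmoothed level rescaled to the same mean and SD their sign turned, to 0.094.

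Skin families were late in some clusters, near the average in others and early at the keratin bin of Krt7. Their 10 bins had a median of -0.455 (range over the profiles -0.610 to -0.316), with 5 below 0 in each profile and 2 above. The 3 bins of the cornified envelope, with the Lce genes whose proteins seal the outer layer of the epidermis, lie between 92600001 and 93000000 on chromosome 3. Their median was -1.23, the bin of Lce6a being the latest at -1.36 and that of Lce3a the earliest at -0.909. Keratin-associated proteins, the matrix of hair, had 2 late bins on chromosome 16, with -1.17 at Krtap14 (88800001 to 88900000) as the latest, and 3 bins near 0 on chromosome 11, up to 0.139 at Krtap31-1 (99900001 to 100000000). The mixed bin of Krtap12-1 and predicted genes on chromosome 10 was early, at 1.04. The raw level went further down than the score at Krtap31-1, with a rescaled value of -0.544. Its raw levels were 1.85, 1.88, 1.89, 1.91, 1.93 and 1.89. The keratins themselves, the filament proteins of epithelia, were above 0 in each profile in both of their bins, with 0.373 at Krt33a (chromosome 11, 100000001 to 100100000) and 0.872 at Krt7 (chromosome 15, 101400001 to 101500000).

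The families listed as immune had a median of 1.02 (range over the profiles 0.931 to 1.15), and their 9 bins were above 0 in each profile. The count depends on the list, since the late bin of antiviral Trim genes described further on was listed with the other families. Whole families were listed by symbol, and an immune role of each gene in these bins was not checked. The bin of Clec12b, Clec9a and Clec7a, C-type lectin receptors of myeloid cells that include the fungal sensor dectin-1 (chromosome 6, 129400001 to 129500000), scored 1.49, 1.48, 1.28, 1.32, 1.33 and 1.42. The CD300 bin of immunoglobulin-like receptors, with Cd300e (chromosome 11, 115000001 to 115100000), scored 1.28, 1.18, 1.32, 0.999, 1.22 and 1.09. The S100 bins lie next to each other on chromosome 3. That with S100a8 and S100a9, the subunits of calprotectin of neutrophils, had a median of 0.821, and its neighbour with S100a1 and S100a13 one of 1.11. The Ly6 bin of chromosome 15, which holds Psca, Slurp1, Lynx1 and Ly6d among others, stood at 1.14. The type I interferon bins of chromosome 4, whose genes are largely silent until infection, were less early at 0.475 and 0.582. Of the 2 defensin bins, genes for antimicrobial peptides, that of Defb26 on chromosome 2 stood at 1.11 and that of Defb11 on chromosome 8 at 0.246.

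Histone, Hox and protocadherin bins had intermediate scores, with a median of 0.564 (range over the profiles 0.476 to 0.713) over 14 bins, of which 11 were above 0 in each profile and none below. All 7 bins of replication-dependent histone genes, which are transcribed in S phase, were above 0 in each profile, with a median of 0.734. The earliest was that of H2ac21 on chromosome 3 (96200001 to 96300000), with scores of 1.33, 1.37, 1.49, 1.11, 1.34 and 1.25. The other 6 lie on chromosome 13, from 0.351 at the edge with Prss16 to 0.745. The bin of H4c8 there, with 14 histone genes (23500001 to 23600000), scored 0.727, 0.794, 0.750, 0.699, 0.461 and 0.728, lowest in profile E. The Hox bins, patterning transcription factors, stood at 0.841 for Hoxc8 to Hoxc13 (chromosome 15), 0.484 for Hoxa5 to Hoxa13 (chromosome 6) and 0.164 for Hoxd9 to Hoxd13 (chromosome 2). At the Hoxc genes the raw levels of 1.95, 1.93, 1.87, 1.90, 1.89 and 1.93 were below the autosomal median and the rescaled value was -0.343, so the score and the unsmoothed level of that bin differed in sign. The 4 clustered protocadherin bins on chromosome 18, cell-adhesion genes of neurons, ran from -0.073 at Pcdhb3 to Pcdhb8 to 0.609 at the bin of Pcdhga1, which with 17 genes held the most of any tandem bin. Their median was 0.209 by score and -0.138 on the rescaled raw level.

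The remaining 11 tandem bins, of enzymes, secreted proteins, zinc fingers and other families, had a median of 1.05 (range over the profiles 0.830 to 1.17), and 10 of them were above 0 in each profile. The Ugt1a bin of chromosome 1 (88100001 to 88200000), whose 7 glucuronosyltransferase genes have separate first exons and share the rest, was the earliest of all tandem bins, at 1.65, 1.69, 1.94, 1.64, 1.64 and 1.50. The lipocalin bin on chromosome 2 stood at 1.42, the apolipoprotein bin of Apoa1, Apoa4 and Apoa5 on chromosome 9 at 1.17 and the ribonuclease bin on chromosome 14 at 1.11. The 3 zinc finger bins, all on chromosome 7, ranged from 0.208 at Fiz1 to 1.53 at Itgal, the integrin alpha L chain, whose bin held 3 zinc finger genes among 6. The exception was the bin of Trim12a, Trim30b and Trim30c, antiviral ubiquitin ligase genes (chromosome 7, 104300001 to 104400000), with -0.524, -0.358, -0.416, -0.591, -0.594 and -0.819. It lies next to the olfactory receptors and beta-globins of the same chromosome.

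Mixed bins scored above their surroundings more often than the average bin and tandem bins less often. Set against the bins 500 to 1000 kb away on both sides, mixed bins scored 0.298 higher (range over the profiles 0.262 to 0.339), and tandem bins 0.097 lower (range 0.020 to 0.128 lower). On the raw level the difference was 0.070 for mixed and -0.0080 for tandem bins. All autosomal bins with enough neighbours had a difference of -0.023 in score, and 39.4% of them were above their surroundings in each profile and 42.5% below. Of the 237 mixed bins 168 (70.9%) were above and 31 (13.1%) below, and of the 88 tandem bins 27 (30.7%) were above and 41 (46.6%) below. At a distance of 1000 kb to either side the mixed bins' surroundings still scored 0.953 and 0.973.

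**Figure D5:**
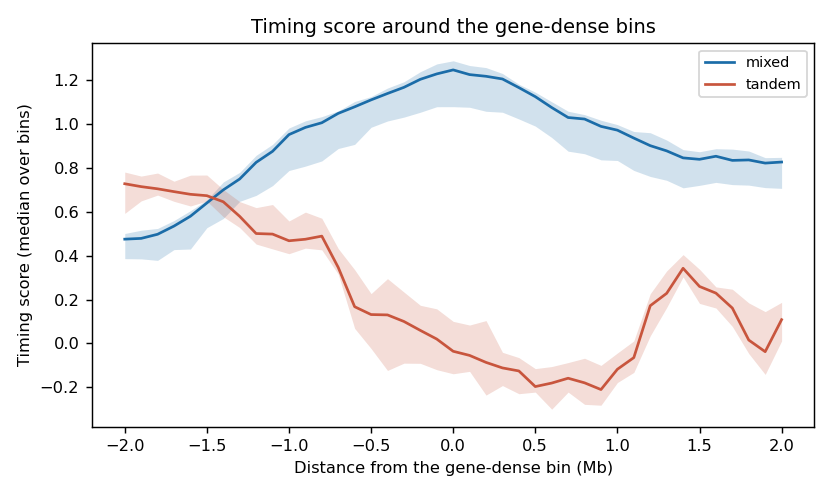
Median timing score (score units) of the bins at each distance from a mixed (blue) or tandem (red) gene-dense bin, with negative distances towards the start of the chromosome; lines are medians of 6 profile medians and bands run from the lowest to the highest profile. The blue line peaks at 1.25 at the bin itself, and the red line passes -0.036 there without a peak.

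Both classes lie in gene-rich surroundings, and the kind of genes around them differed. Within 500 kb to either side a mixed bin had a median of 35 other protein-coding genes and a tandem bin 39.5. Counting only named genes of none of the listed families and not of the bin's own family, the medians were 28 and 6.5. Where a mixed bin had no recognised family, flanking genes without one were left out as well, which lowers its count. The effect of this on the mixed values was not tested. Over the 88 tandem bins the score went with this second count (Pearson's r = 0.63, Spearman's rank correlation 0.71). With the count of all flanking genes the relation was weak and negative (Pearson's r = -0.22, Spearman's rank correlation -0.22). The 237 mixed bins also showed a relation with the second count (Pearson's r = 0.50, Spearman's rank correlation 0.45). With all flanking genes it was weaker there (Pearson's r = 0.17, Spearman's rank correlation 0.23). These are descriptions across bins that share clusters and chromosomes. The 61 tandem bins with 0 to 9 such genes had a median score of -0.610, the 17 with 10 to 19 had 0.474, and the 10 with 20 or more had 1.10, all 10 of them above 0 in each profile. None of those 10 was olfactory. Within the lowest group the 32 olfactory bins stood at -0.940 and the 29 bins of other families at 0.263. The definition was narrowed after the data were seen. The first form counted every gene outside the bin's family, predicted genes and neighbouring families included. Over the tandem bins it gave a Pearson's r of 0.53 and a Spearman's rank correlation of 0.60. The medians were then -0.861 (41 bins), 0.463 (19 bins) and 0.613 (28 bins) in the same order.

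A mixed bin lay within 1 Mb of 36 tandem bins. Over these 36 pairs the mixed bin scored higher in each profile in 26 and lower in each in 3, with a median difference of 0.181 (from -0.184 to 1.91). In 10 of the pairs the mixed bin was one of the predicted-gene or globin bins set apart after their values were seen, and there the median difference was -0.023, with the mixed bin higher in each profile in 3 pairs and lower in each in 1. In the other 26 pairs it was higher in each profile in 23 and lower in each in 2, with a median of 0.490. Several pairs share a mixed bin. The largest steps were at olfactory clusters. On chromosome 10 the mixed bin of Cd63, Itga7 and Bloc1s1 (128900001 to 129000000) scored 1.09, and the olfactory bins 700 to 1000 kb further on scored -0.710, -0.798 and -0.717. On chromosome 7 the mixed bin of Il18bp and Rnf121 (102000001 to 102100000) scored 1.64. Along the olfactory cluster that follows, the bins starting at 102600001, 102700001, 102900001, 103300001, 103400001, 103500001, 103700001 and 104000001 scored 0.674, 0.386, -0.149, -0.621, -0.654, -0.705, -0.774 and -0.555, so the first 7 were each later than the one before and the last was earlier again. The 3 olfactory bins near a mixed bin at 58900001 on chromosome 11 showed smaller steps than these, with 0.445, 0.528 and 0.628 against 0.723.

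Gene-dense bins varied between the profiles about as much as other bins. The median range of a bin's score over the 6 profiles was 0.261 in gene-dense bins, 0.258 in mixed bins, 0.301 in tandem bins and 0.286 in all autosomal bins. A range of 1 or more was found in 5.91% of all autosomal bins and in 9 gene-dense bins (2.68%). Of these 9 bins, 7 were mixed bins of chromosome 17 between 45500001 and 57100000, where profile D was the highest. The widest was the bin of Plin4 and Plin5, lipid droplet proteins (56100001 to 56200000), with 1.60, 1.66, 1.74, 2.72, 1.70 and 1.49. Its raw levels were 2.27, 2.24, 2.21, 2.36, 2.26 and 2.27, also highest in D. In each of the 5 widest bins, all on chromosome 17, the raw level too was highest in D, and extra copies and earlier replication cannot be told apart there. The other 2 were olfactory bins of chromosome 2. The first (86100001 to 86200000) scored -0.647, -0.726, -0.832, -1.03, -1.69 and -1.55, with raw levels of 1.91, 1.91, 1.95, 1.82, 1.69 and 1.73, and its neighbour (86200001 to 86300000) scored -0.674, -0.741, -0.861, -1.07, -1.74 and -1.59. Profiles E and F were the lowest there in both measures. Without chromosomes 3, 4, 6, 14 and 17, where broad shifts of copy level were known from these data, 2 of 256 gene-dense bins (0.781%) and 0.786% of all bins had a range of 1 or more.

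The annotation set the classes apart in other features that were not themselves selection criteria. Genes of mixed bins had a median length of 6881 bp and those of tandem bins one of 1035 bp, against 17886 bp for genes of all autosomal bins. Gene length is not independent of the selection, however. Requiring many gene midpoints in a bin can favour short genes, and the tandem class is defined by gene family. How much of these differences in length the selection built in was not tested. Pseudogenes numbered 0.342 per mixed bin, 0.966 per tandem bin and 0.344 per autosomal bin. Long non-coding RNA genes numbered 0.865, 0.420 and 0.514 in the same order. A microRNA gene was annotated in 30.8% of the mixed bins, 4.55% of the tandem bins and 3.53% of all bins. Mixed bins had a median of 10 valued windows and tandem bins one of 9. Reads from near-identical gene copies can be placed on the wrong copy or left out, and the part of read placement, and of base composition, in the level of tandem bins was not tested.

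RefSeq windows around the gene start were matched for 1379 of 1719 genes of the mixed bins (80.2%), 206 of 245 olfactory receptor genes of the tandem bins (84.1%), 56 of 61 histone genes (91.8%) and 154 of 189 genes of the other families (81.5%). For the Hox genes (66.7%), the protocadherins (0%) and tandem genes as a whole (77.0%), fewer than the minimum of 80% were matched and no value is given. All autosomal genes (79.6%) also fell just below it, and their values are given only as a rough background. The median GC content was 58.3% in mixed, 34.7% in olfactory and 45.5% in histone genes. Per window of 300 bases there were 16 CG dinucleotides in mixed genes, 1 in olfactory, 11 in histone and 2 in other family genes. Windows with 10 or more were found in 67.3% of mixed, 0.485% of olfactory, 60.7% of histone and 8.44% of other family genes. All autosomal genes had a median GC content of 56.7% and a median of 14 CG dinucleotides, and 59.4% of these genes had 10 or more. The values of mixed genes thus lay near those of all genes. Of the olfactory windows 72.1% began their transcribed part with ATG, against 3% in mixed and 1.75% in histone windows. The annotated start of most olfactory receptor genes is thus the start codon, and those windows need not hold the promoter.

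Letters of 3 promoter motifs were counted on both strands of 1700 mixed, 208 olfactory and 57 histone start windows. The shares are per window, not per gene as for the CG dinucleotides. The first, the core of the TATA box, was spelled TATAAA. The next, the GC box, was spelled GGGCGG and itself holds a CG dinucleotide. The last was the CCAAT box, and none of the motifs contains another. TATAAA was present in 10.4% of the mixed, 44.2% of the olfactory and 56.1% of the histone windows, against 12.7% of all autosomal windows. GGGCGG was present in 54.5%, 0.962% and 40.4%, against 47.0%. CCAAT was present in 38.1%, 43.3% and 86.0%, against 38.1%. In 165 windows of the other family genes TATAAA was present in 30.9%, GGGCGG in 9.70% and CCAAT in 37.6%. TATAAA and CCAAT were thus each more common in histone windows than in all autosomal windows. The printed window of H2ac21 holds both motifs, but how often they share a window was not counted. A match describes letters in a window and is not a site.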

How the data were processed

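Whole-genome sequencing of 6 samples was analysed from 2 deposited tables of 237602 windows (median 10041 bp). Per the submitters' processing notes the build was mm10 and Picard 2.23.9 was used, and the series title names TIGER. The sources used here do not give the aligner, GC correction or smoothing. The authors deposited a smoothed timing score, checked to have mean 0 and SD 1 over autosomal windows, and another value, an unsmoothed normalised copy level near 2. The 6 value columns are unnamed, so the limma comparison of genotypes could not be run. The members and family lists were chosen with earlier results of these data known.

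Windows were averaged into 100-kb bins (Python 3.11.15, pandas 2.3.3, numpy 2.4.6), keeping bins with 3 or more valued windows in each profile in both tables. RefSeq genes were placed by their midpoints (20665 autosomal protein-coding genes) and assigned to families by symbol patterns, then by symbol stem. The averaging and the class rule were tested on simulated data. Named bins were the 5 earliest and 5 latest mixed bins (also without those set aside), the earliest and latest bin of each family, the 3 with most genes in each class and the 5 with the widest range. Other bins named were chosen after their values were seen. Alternatives changed the gene limit, family rule, gene position, grid, window minimum, chromosomes and profiles.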

Additional observations from a re-analysis of the deposited data

How the results depend on the processing

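The mixed bins stayed above the tandem bins in every alternative run, with a difference in median score between 0.678 and 1.39, while the sign of the tandem median, which lies near 0, did not hold. It was 0.015 on the rescaled raw level, 0.030 with 5 or more genes per bin, 0.339 with 8 or more, 0.067 with genes placed by their lower coordinate, 0.145 on a grid shifted by 50 kb, 0.580 without olfactory bins, 0.291 with one value per cluster and -0.179 where a family had to hold 75% of the genes. With 8 or more genes, 102 bins were left, the differences were 0.852 in score and 0.134 in raw level, 88.2% of gene-dense and 57.1% of tandem bins were above 0 in each profile, and 0% had a range of 1 or more. With 5 or more genes there were 609 bins. The family share of 75% gave differences of 1.39 and 0.221, the shifted grid one of 1.03 in score and the lower coordinate one of 0.183 in raw level. Without olfactory bins the differences were 0.678 and 0.127, the gene-dense median was 1.21, and 92.2% of gene-dense and 66.7% of tandem bins were above 0 in each profile. One value per cluster gave differences of 0.906 and 0.149. Mixed bins above 0 in each profile came to 99.5% without predicted genes and to 100% without the 11 bins set aside, both percentages resting on which bins count as mixed. The share of gene-dense bins with a range of 1 or more was 0.781% without chromosomes 3, 4, 6, 14 and 17, and 0.595% without profile D, the range over leaving out each profile being 0.595% to 2.68%. On the rescaled raw level 4 of 14 families and 21 of 61 named bins moved by less than the spread over the profiles, 8 and 36 moved further, and 2 and 4 changed sign: the protocadherins (-0.138), the trace amine receptors (0.094) and the bins of Hoxc13 (-0.343), Krtap31-1 (-0.544), Vnn1 (0.131) and Taar7b (0.058). The cause of these changes was not tested. The alternatives that set bins aside, left out olfactory bins, took one value per cluster or counted flanking genes differently were chosen after seeing the data. Chromosomes 3, 4, 6, 14 and 17 were left out for shifts of copy level known from these data. A lower share of bins with a range of 1 or more was therefore built into that choice.

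No paired analysis was possible because the value columns carry no replicate number. The fit with a replicate block and families defined by protein similarity were not run. The sources used here do not give the depth per library, so counting error is unknown. Families rest on symbols, and 11 bins of predicted or globin genes count as mixed by that rule.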
